A study of Mus musculus with 16 samples.

Results

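Histone H3 carries lysine 27 in a stretch of its tail where active and Polycomb-silenced chromatin take opposite modifications, and both were mapped here in mouse embryonic stem cells. The account covers the 4 deposited peak lists of H3K27ac (replicates 1 and 2) and H3K27me3 (replicates 1 and 2) from Mettl14 control cells, chosen by their labels alone. They hold 42576 peaks of the 117176 peaks in the 12 peak lists of the study, or 36.3%.

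The study profiled 3 histone marks and input DNA by ChIP-seq, in 16 samples of Mettl14 conditional knockout and control embryonic stem cells from C57BL/6 mice. Mettl14 encodes a subunit of the enzyme that places N6-methyladenosine on RNA. All groups grew in serum medium with LIF, 3 µM of the GSK3 inhibitor CHIR99021 and 1 µM of the MEK inhibitor PD0325901, conditions that hold the cells in a naive state. The labels do not say which allele or recombinase the control cells carry, and they give no more on the replicates than a number. The p-values below therefore measure the spread between samples that may be technical repeats.

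Acetylation of lysine 27 (H3K27ac) is placed by the acetyltransferases p300 and CBP and marks active promoters and enhancers. Trimethylation of the same lysine (H3K27me3) is placed by Polycomb repressive complex 2, or PRC2, and in embryonic stem cells it covers the silent promoters of developmental regulators. One lysine cannot carry both modifications, so overlap in a cell population needs different tails, nucleosomes, alleles or cells.

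Before any result, a point on the labels: the antibody field of the H3K27ac libraries names a product raised against H3K4me3, whereas that of the H3K27me3 libraries names an H3K27me3 antibody. H3K4me3 peaks of the same replicate number overlapped 7.31% of replicate 1 and 7.69% of replicate 2 H3K27ac peaks. For the other number these shares were 5.60% and 5.64%. The H3K4me3 lists are much shorter, and of their peaks 40.1% in replicate 1 and 43.2% in replicate 2 overlapped the H3K27ac list of the same number. Which antibody was used was not tested, and counts that change without these shared peaks are given beside the gene classes.

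The widest H3K27ac region found in both lists, chr7:3199189-3220786 (GRCm38), was 20743 bp wide in replicate 1 and 20813 bp wide in replicate 2, and no H3K27me3 peak touched it. It runs into the Mir290 cluster, the microRNA genes most typical of mouse embryonic stem cells, whose 3p products hold down inhibitors of the cell cycle. The 3p sequences shown share the first bases of the seed, which is in capitals (bases 2 to 8), and they show which regulators lie in the broadest active domain. The region ends inside the Mir295 hairpin, so the mature miR-295-3p lies just beyond it. The sequences are RefSeq's on GRCm38.
mmu-miR-290a-3p, chr7:3218674-3218697, strand +: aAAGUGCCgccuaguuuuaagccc
mmu-miR-291b-3p, chr7:3219529-3219550, strand +: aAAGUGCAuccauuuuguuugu
mmu-miR-294-3p, chr7:3220691-3220712, strand +: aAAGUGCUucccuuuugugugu
mmu-miR-295-3p, chr7:3220815-3220837, strand +: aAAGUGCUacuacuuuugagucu

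Among the microRNA hairpins called for H3K27me3 in both lists are products of developmental loci, chosen for display after their values were seen. Mir9-1 (neural), Mir196a-2 (in the Hoxc cluster), Mir10b (in the Hoxd cluster), Mir203 (epidermal) and the related Mir193a and Mir193b are shown with the seed in capitals. The last 2 have the same seed, whereas the others differ from it and from each other.
mmu-miR-9-5p, chr3:88215613-88215635, strand +: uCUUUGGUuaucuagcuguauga
mmu-miR-196a-5p, chr15:102973365-102973386, strand +: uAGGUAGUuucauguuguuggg
mmu-miR-10b-5p, chr2:74726074-74726096, strand +: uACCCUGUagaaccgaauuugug
mmu-miR-203-3p, chr12:112130927-112130948, strand +: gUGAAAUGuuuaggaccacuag
mmu-miR-193a-3p, chr11:79712009-79712030, strand +: aACUGGCCuacaaagucccagu
mmu-miR-193b-3p, chr16:13449570-13449591, strand +: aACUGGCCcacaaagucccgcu

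Of 1005 hairpins, 43 (4.28%) had a peak within 1 kb in both H3K27ac lists and 15 (1.49%) in both H3K27me3 lists, and 0 in all 4 lists. Hairpins close together share peaks, as those of the Mir290 cluster do for H3K27ac and Mir9-1 and Mir3093 do for H3K27me3. These counts are therefore not of separate peaks. The Mir9-1 peak was 5762 bp in replicate 1 and 2958 bp in replicate 2 of H3K27me3, and a 501 bp H3K27ac peak was listed there in replicate 1 alone. At Mir196a-2 the H3K27me3 peaks measured 1777 and 2442 bp, and at Mir10b 1220 and 1040 bp, with no H3K27ac peak at either. Mir193a and Mir193b carried narrower H3K27me3 peaks, 501 bp in both lists at Mir193a, and 501 and 825 bp at Mir193b.

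Promoters differ between the marks in CpG content, so 3 promoters under a peak in both H3K27ac lists are printed, with every CpG in capitals. Each runs from 250 bases before to 50 bases after the listed transcription start and is credited to RefSeq on GRCm38. Pou5f1 and Sox2 encode core pluripotency factors, and Klf4 encodes a naive-state factor.
Pou5f1, chr17:35505782-35506081, strand +: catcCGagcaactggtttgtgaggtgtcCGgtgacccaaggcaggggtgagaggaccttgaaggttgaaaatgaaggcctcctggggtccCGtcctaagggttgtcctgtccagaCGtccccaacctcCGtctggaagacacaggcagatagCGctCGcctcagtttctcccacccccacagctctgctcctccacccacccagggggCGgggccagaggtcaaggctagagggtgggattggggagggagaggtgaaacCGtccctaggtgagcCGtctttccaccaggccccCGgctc
Sox2, chr3:34649745-34650044, strand +: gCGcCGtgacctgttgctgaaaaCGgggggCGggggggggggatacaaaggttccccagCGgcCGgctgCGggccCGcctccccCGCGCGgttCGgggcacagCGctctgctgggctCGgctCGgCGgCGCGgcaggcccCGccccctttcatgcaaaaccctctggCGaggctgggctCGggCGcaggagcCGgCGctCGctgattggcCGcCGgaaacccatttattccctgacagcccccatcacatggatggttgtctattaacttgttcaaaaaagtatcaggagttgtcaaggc
Klf4, chr4:55532426-55532725, strand -: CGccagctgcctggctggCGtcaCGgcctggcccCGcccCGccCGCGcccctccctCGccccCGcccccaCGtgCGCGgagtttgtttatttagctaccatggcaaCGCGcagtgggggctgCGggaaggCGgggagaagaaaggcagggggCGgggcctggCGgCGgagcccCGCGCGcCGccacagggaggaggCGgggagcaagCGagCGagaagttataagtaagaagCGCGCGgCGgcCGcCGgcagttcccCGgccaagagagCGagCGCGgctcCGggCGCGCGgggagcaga

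Of the H3K27me3 genes examined, the promoters of 2 homeobox genes lay under a peak in both lists and are printed, whereas those of Pax6 and Hoxd13 had none over them. Those of Hoxa9, Cdx2 and Lhx1 lay under a peak in 1 list. The 2 are Evx1, active in the primitive streak, and Hoxa7, a gene of trunk patterning.
Evx1, chr6:52313248-52313547, strand +: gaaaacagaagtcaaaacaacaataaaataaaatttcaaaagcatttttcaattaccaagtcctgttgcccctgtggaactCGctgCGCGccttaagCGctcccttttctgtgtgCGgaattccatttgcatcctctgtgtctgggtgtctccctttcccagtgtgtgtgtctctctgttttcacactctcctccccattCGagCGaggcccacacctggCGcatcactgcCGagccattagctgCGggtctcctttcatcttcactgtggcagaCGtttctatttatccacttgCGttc
Hoxa7, chr6:52218524-52218823, strand -: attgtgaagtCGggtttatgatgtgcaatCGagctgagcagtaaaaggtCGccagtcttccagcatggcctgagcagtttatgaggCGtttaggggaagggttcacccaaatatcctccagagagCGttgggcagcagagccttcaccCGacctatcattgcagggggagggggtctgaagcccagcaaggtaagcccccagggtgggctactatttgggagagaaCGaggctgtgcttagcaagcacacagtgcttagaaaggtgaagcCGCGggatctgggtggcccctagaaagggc

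Klf4 holds 40 CpG dinucleotides, Sox2 27 and Pou5f1 11 in these windows, against 12 in Evx1 and 9 in Hoxa7. Windows examined but not printed spread as widely. Of H3K27ac alone genes, Nanog has 4 in either window and Pou5f1 6 in a second one. Of H3K27me3 alone genes, Hoxa9 has 4, Pax6 18 and 16, Cdx2 18, Lhx1 31 and Hoxd13 37. These genes were picked for their roles and the peaks over them, so the class medians given later are the comparison to read.

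H3K27ac gave the longer lists. It had 15541 peaks in replicate 1 and 13520 in replicate 2, against 6312 and 7203 peaks of H3K27me3. The means were 14530 ± 1429 and 6758 ± 630.0 peaks (SD, n = 2 each), a 2.15-fold difference. The H3K27ac peaks covered 15.23 and 13.28 Mb, against 4.467 and 5.130 Mb for H3K27me3, a 2.97-fold difference of the means. The values of the marks did not overlap in either measure. Dividing the 4 lists in all 6 ways gives an exact permutation p of 0.333 (two-sided) for both, the smallest that this design allows, so no difference between the marks here can pass 0.05. Read depth is unknown because the files hold positions alone, and its part in the length of the lists was not tested.

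H3K27ac peaks were also wider. Both marks share a minimum width of 501 bp, the deposited width of 51.3% and 51.8% of H3K27ac peaks and of 62.0% and 63.2% of H3K27me3 peaks (difference of means -11.1 percentage points, exact permutation p = 0.333). Peaks of 2 kb or more were 9.59% and 9.33% of H3K27ac peaks, against 2.52% and 2.85% of H3K27me3 peaks. At 5 kb or more there were 233 and 212 H3K27ac peaks, and 6 and 14 H3K27me3 peaks. Wide peaks held 35.1% and 35.4% of the bases called for H3K27ac, and 10.7% and 12.3% of those for H3K27me3. The replicates of each mark lay closer to each other than to the other mark in every one of these shares.

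**Figure D1:**
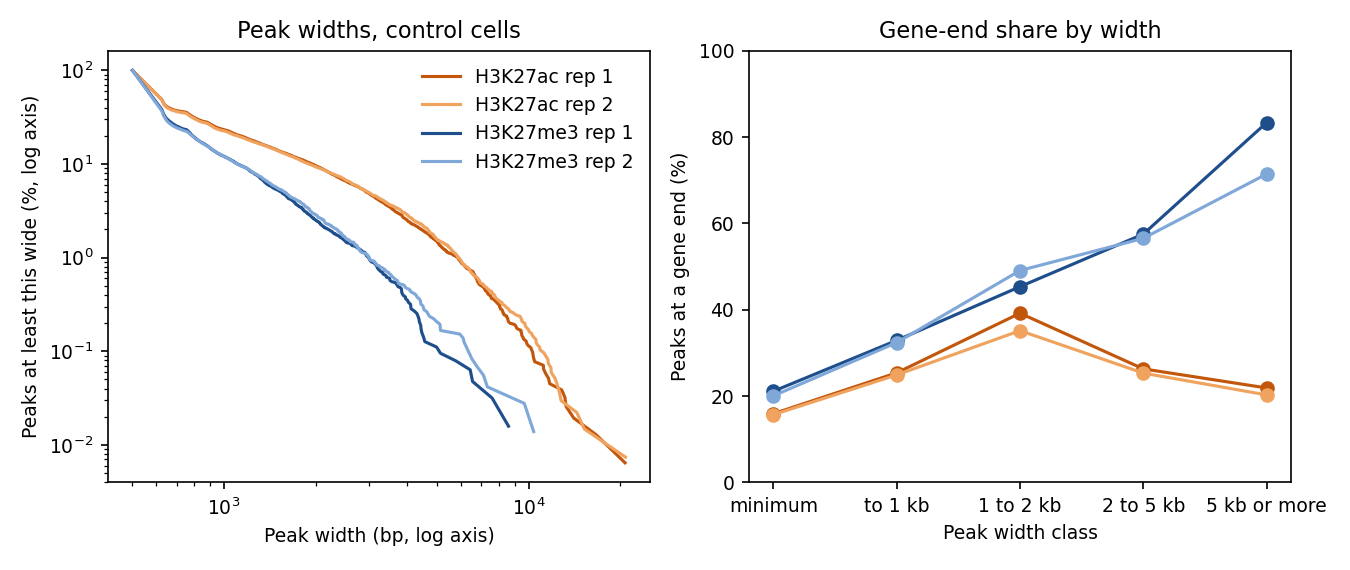
Left, share of peaks at least as wide as the value on the horizontal axis (bp), both axes logarithmic, for each control list. Right, share of peaks within 1 kb of a gene end, by width class. The H3K27ac lines lie above the H3K27me3 lines at every width over 1000 bp on the left, and on the right the H3K27me3 share reaches 83.3% and 71.4% at 5 kb or more while the H3K27ac share is 21.9% and 20.3%.

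Width separated the marks in a further way, in their relation to genes. Here a gene end is the 1 kb either side of either end of a gene, since the gene table gives no strand. Among 501 bp peaks, 15.9% and 15.7% of H3K27ac peaks and 21.1% and 20.1% of H3K27me3 peaks touched a gene end. The share was 39.2% and 35.2% of H3K27ac peaks of 1 to 2 kb, and was 26.3% and 25.3% at 2 to 5 kb. For H3K27me3 it was 45.4% and 49.1%, and then 57.5% and 56.5%, in the same classes. The widest class of H3K27me3 holds few peaks (6 and 14). The widest acetylated domains therefore lay mostly away from gene ends in these lists, whereas wide H3K27me3 peaks lay mostly at them.

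Over all peaks, 22.4% and 21.5% of H3K27ac and 27.4% and 26.8% of H3K27me3 peaks touched a gene end (difference -5.19 percentage points, exact permutation p = 0.333). The sign of this difference turned with a 500 bp window (1.71) and with lists of equal length (1.08), so it gives no order of the marks. Gene bodies held 43.0% and 43.5% of H3K27ac peaks and 41.4% of H3K27me3 peaks in both lists, also with a sign that turned under those settings and when 501 bp peaks were left out. Intergenic positions held 34.6% and 35% of H3K27ac peaks, against 31.2% and 31.8% of H3K27me3 peaks. The marks stood further apart in regions found in both lists: 1608 of 4868 H3K27ac regions (33.0%) and 659 of 1402 H3K27me3 regions (47.0%) touched a gene end, and 1620 (33.3%) and 253 (18.0%) were intergenic.

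Around 21238 listed transcription starts the marks had different shapes. H3K27ac covered 9.11% and 7.15% of starts at the start itself, with the highest coverage 250 bases downstream, at 10.9% and 8.71%. H3K27me3 covered 1.33% and 1.92% of starts at the start itself and was highest 1250 bases downstream, at 2.52% and 2.62%. Upstream by 1 kb the H3K27me3 coverage was 1.75% and 1.77%, so replicate 1 had a dip at the start that replicate 2 did not show. At 10 kb downstream both marks were low, 1.35% and 1.04% for H3K27ac and 0.334% and 0.443% for H3K27me3.

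**Figure D2:**
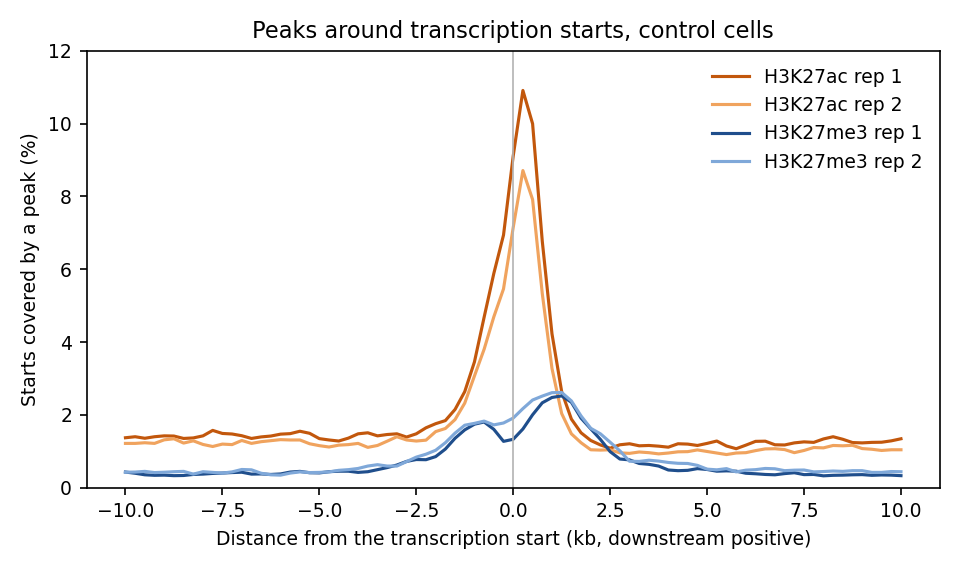
Share of 21238 listed transcription starts covered by a peak (%), by distance from the start (kb, downstream positive), for each control list. H3K27ac is highest 250 bases downstream (10.9% and 8.71% of starts), H3K27me3 1250 bases downstream (2.52% and 2.62%).

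At the level of genes, 3799 and 3162 protein-coding genes of 21887 had an H3K27ac peak at an end, against 1601 and 1806 for H3K27me3 (2.04-fold, exact permutation p = 0.333). The log2 difference of 1.03 behind this fold was 0.37 with lists of equal length, and 0.37 without the H3K27ac peaks shared with H3K4me3. In both lists, 1988 genes had H3K27ac (9.08%) and 792 had H3K27me3 (3.62%). Of these, 1965 genes (8.98%) had H3K27ac in both lists and H3K27me3 in neither, called H3K27ac alone here. The reverse class, H3K27me3 alone, held 731 genes (3.34%). All 4 lists named 5 genes (0.0228%), and 14546 genes (66.5%) had no peak in any list. Without the H3K27ac peaks shared with H3K4me3, the H3K27ac alone class held 969 genes and the H3K27me3 alone class 734.

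The genes with the broadest H3K27ac peaks, ranked by the smaller of their 2 widths, included genes of pluripotent cells, histone genes and genes of general function. Nlrp12, an innate immune receptor gene, led through its annotated span, whose end of lower coordinate lies in the Mir290 cluster (20743 and 20813 bp). These peaks were not at a listed start of Nlrp12. Arih2, a ubiquitin ligase gene, had 11629 and 11396 bp. Dppa5a (chr9:78367052-78368199), an RNA-binding protein gene of pluripotent cells, and its neighbour Ooep, an oocyte and early embryo gene, shared peaks of 11205 and 11615 bp. The histone genes H1f2, H2bc3 and H3c3 shared peaks of 9953 and 9741 bp on chromosome 13, so these 3 are a single observation. Usp48 (a deubiquitinase), Jam2 (a junction protein) and Gpx4 (the lipid peroxide reductase) completed the 10, with smaller widths of 9449, 9101 and 7754 bp. The class admits no H3K27me3 peak in either list, so its absence here is the rule and not a result.

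Of the 10 broadest H3K27me3 genes, 5 encode homeobox transcription factors: Nkx1-1, Onecut3, Cdx2, Evx1 and Lhx5. Nkx1-1 (chr5:33430734-33434090) had peaks of 8596 and 4729 bp, and Onecut3 of 4520 and 6369 bp. Cdx2 (chr5:147300900-147307249), the trophectoderm determinant, had 5142 and 4261 bp, and Evx1 had 4991 and 3473 bp. Lhx5, a forebrain regulator, had 3496 and 3002 bp. Others encode membrane proteins: Tmem59l had 3725 and 10396 bp, the potassium channel gene Kcnk9 had 3809 and 4086 bp, and the adhesion receptor gene Adgrb2 had 3710 and 3168 bp. Predicted genes are counted without names: there were 83 in the H3K27ac alone class and 23 in the H3K27me3 alone class.

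By the smaller of the 2 called lengths, the widest H3K27ac regions after the Mir290 domain lay 13349 bp from Kat6b, a histone acetyltransferase gene, and within Myo10, an unconventional myosin gene. Further ones lay in Tmem51, 7389 bp from Epha2 (an ephrin receptor gene), in Etv5 (an ETS factor of naive cells), at the long noncoding RNA gene Malat1 and in Mapt, the tau gene. The called lengths were 14648 and 13430 bp at Kat6b, 16649 and 12798 bp at Epha2, and 12855 and 11583 bp at Mapt. The widest H3K27me3 regions each touched a gene, and apart from those already named they were at Unc45b, Apc2, Prdm12, Rspo1 and Agap2. Prdm12, a regulator of sensory neurons, had 7591 and 4387 bp called, and Rspo1, a secreted enhancer of Wnt signalling, had 4375 and 4290 bp.

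Where pluripotency genes were called at a gene end in both lists of a mark, that mark was H3K27ac. Of 25 naive and core pluripotency genes, 12 (48.0%) had H3K27ac in both lists and 0 had H3K27me3 in both. Of all genes, 9.08% and 3.62% did, and 0 of 25 cannot be set apart from 3.62%. Pou5f1 had H3K27ac peaks of 6368 and 5999 bp, Sox2 of 3566 and 3518 bp, Nanog of 8081 and 6431 bp, and Klf2 of 8235 and 6843 bp. These widths lay close together between replicates, and no H3K27me3 peak met any of the 4 genes. Klf4 itself was narrower (1556 and 1081 bp). The list was not uniformly covered, since Klf5, Zfp42 and Utf1 had no peak in any list, and Dppa3 had a 501 bp H3K27me3 peak in replicate 2. Esrrb, an orphan nuclear receptor gene of naive cells, had H3K27me3 within 1 kb of a listed start in both lists, away from its outer ends, and a 501 bp H3K27ac peak at an end in replicate 1 alone. These 5 were chosen for mention after their values were seen.

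Markers of other cells that such a culture could hold had 0 or 1 gene with H3K27ac in both lists, few enough that they cannot be set apart from the 9.08% of all genes. The feeder fibroblast list had 1 gene of 14 (7.14%), Fn1 (fibronectin), at 501 and 645 bp. The trophectoderm list had 0 of 14 with H3K27ac and 5 (35.7%) with H3K27me3, beside 3.62% of all genes. Among the 5 were Cdx2, Eomes (501 bp in both lists) and Ascl2 (501 and 1930 bp). Of 14 primitive endoderm genes, 0 had H3K27ac and 1, Foxa2, had H3K27me3 in both lists. Gata6, the leading regulator of that lineage, had H3K27ac of 501 bp in replicate 1 and H3K27me3 of 870 bp in replicate 1, and neither mark in replicate 2.

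**Figure D3:**
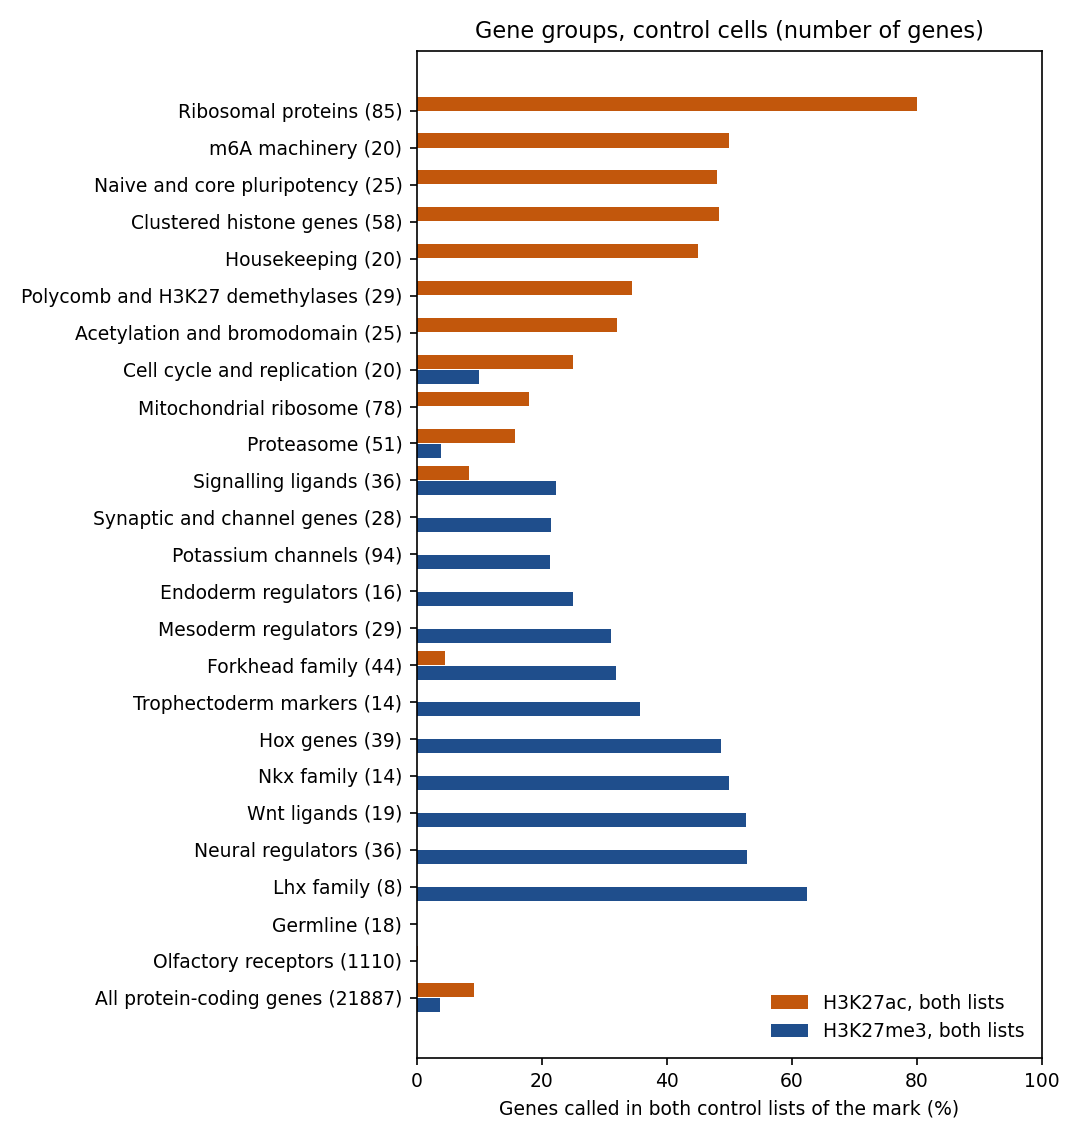
Share of each gene group (%) called in both control lists of H3K27ac (upper bar) and of H3K27me3 (lower bar), with the number of genes in parentheses and all 21887 protein-coding genes at the foot (9.08% and 3.62%). Ribosomal protein genes reach 80.0% for H3K27ac and the Lhx family 62.5% for H3K27me3, and in most groups a single mark has calls.

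Genes of protein synthesis and basic upkeep were called mainly for H3K27ac. Of 85 ribosomal protein genes, 68 (80.0%) had H3K27ac in both lists and 0 had H3K27me3. Among 78 genes of the mitochondrial ribosome the count was 14 (17.9%) for H3K27ac and 0 for H3K27me3. Housekeeping genes gave 9 of 20 (45.0%) and 0, with the actin gene Actb at 1559 and 2167 bp and Actg1 at 2434 and 2630 bp. Of 58 clustered histone genes, 28 (48.3%) had H3K27ac and 0 had H3K27me3, although neighbours there share peaks. The proteasome family had 8 of 51 (15.7%) and 2 (3.92%), beside 9.08% and 3.62% of all genes.

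Lists of Polycomb and acetylation genes, which mix writers, readers and erasers of the marks, are read beside 9.08% (H3K27ac) and 3.62% (H3K27me3) of all genes. Counts of 0 in lists of this size cannot be set apart from 3.62%. Of 29 Polycomb genes, 10 (34.5%) had H3K27ac in both lists and 0 had H3K27me3. They included the PRC2 core genes Ezh2 (1838 and 1636 bp), Eed (2307 and 1775 bp) and Suz12 (3163 and 2009 bp), and Jarid2 (2220 and 2158 bp), which guides PRC2. Some Polycomb genes had H3K27me3 in 1 list, such as Cbx8 (2951 bp, replicate 1), Bmi1 (1748 bp, replicate 2) and Phf19 (888 bp, replicate 2). They were chosen for mention after their values were seen. In the acetylation and bromodomain list 8 of 25 (32.0%) had H3K27ac and 0 had H3K27me3 in both lists. Ep300, which encodes p300, had 3516 and 2205 bp, Kat2b had 2820 and 2584 bp, and Kat8 had 1474 and 501 bp. Crebbp, which encodes CBP, had a 501 bp H3K27ac peak in replicate 2 alone.

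The genes for N6-methyladenosine enzymes and readers had H3K27ac in 10 of 20 (50%) and H3K27me3 in 0, beside 9.08% and 3.62% of all genes. A count of 0 in 20 cannot be set apart from 3.62%. Wtap, a writer subunit, had H3K27ac peaks of 1888 and 2705 bp, Rbm15 of 2229 and 2321 bp, and the nuclear reader Ythdc1 of 1403 and 1351 bp. Mettl14 itself had a 501 bp H3K27ac peak in replicate 1 and no peak in replicate 2 or in the H3K27me3 lists. Mettl3, its catalytic partner, had no peak in any of the 4 lists.

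Hox genes, which set position along the body axis, were called in both lists of a mark for H3K27me3 and not for H3K27ac. Of 39, 0 had H3K27ac in both lists and 19 (48.7%) had H3K27me3, of which 17 had H3K27ac in neither list. Of all genes, 9.08% had H3K27ac and 3.62% H3K27me3 in both lists. Neighbouring Hox genes can share a peak, so the 19 are not separate observations. In replicate 2, for example, Hoxc6 and Hoxc8 both had 3172 bp, and Hoxd9 and Hoxd10 both had 978 bp. Hoxa9 had H3K27me3 peaks of 2322 and 1949 bp, whereas Hoxa7 (1103 and 501 bp), Hoxb2 (702 and 501 bp) and Hoxb3 (4463 and 501 bp) differed more between replicates. Over the whole Hoxa cluster H3K27ac covered 2.02 and 0.501 kb, against 13.1 and 21.8 kb for H3K27me3. The Hoxd cluster had 0 H3K27ac peaks in both lists, against 15 and 21 H3K27me3 peaks that covered 11.5 and 17.0 kb. At the Hoxb cluster the lengths were 1.99 and 0.942 kb for H3K27ac, against 22.2 and 16.2 kb for H3K27me3, and at the Hoxc cluster 2.00 and 1.71 kb against 11.8 and 21.6 kb.

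**Figure D4:**
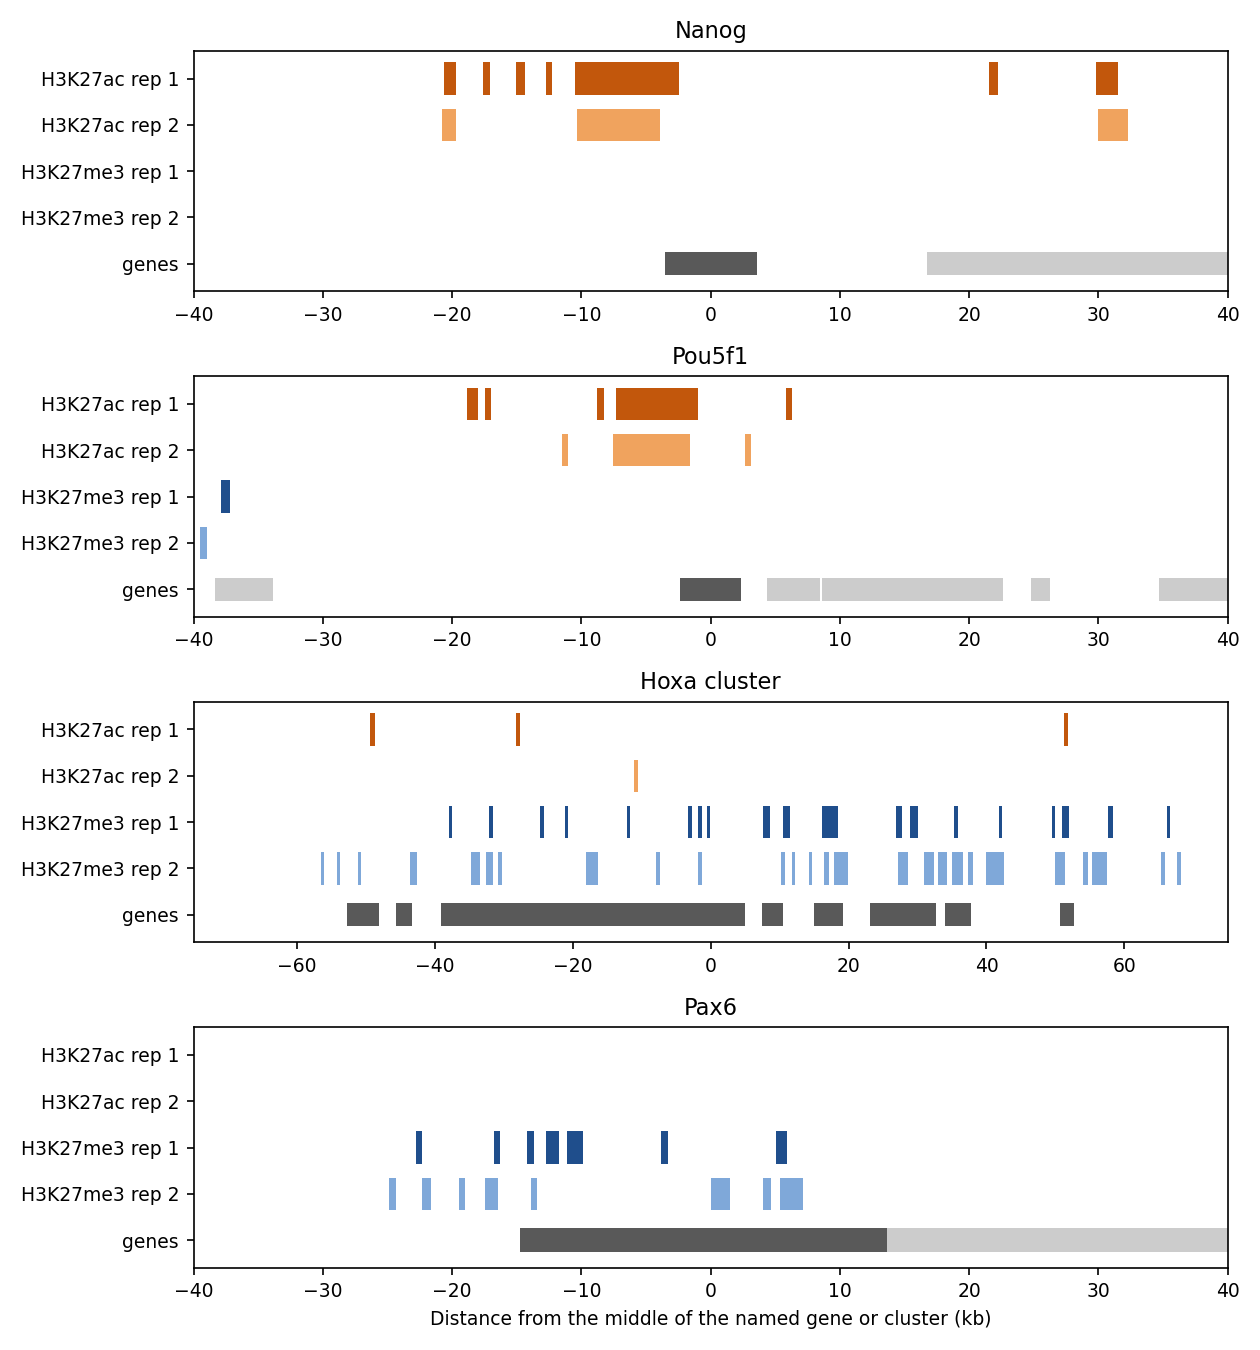
Peaks of the 4 control lists at Nanog, Pou5f1, the Hoxa cluster and Pax6, by distance from the middle of the gene or cluster (kb), with dark bars for the named genes and light bars for neighbours. In the windows drawn H3K27ac covers 13.0 and 9.82 kb at Nanog and 0 kb at Pax6, and H3K27me3 covers 0 kb at Nanog and 5.13 and 7.05 kb at Pax6.

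Neural regulators followed the Hox genes. Of 36, 0 had H3K27ac and 19 (52.8%) had H3K27me3 in both lists, beside 9.08% and 3.62% of all genes. All of these 19 had H3K27ac in neither list. Pax2 had 2931 and 1636 bp of H3K27me3 and Pax3 had 1953 and 501 bp. Pax6 and Pax7, regulators of eye, brain and muscle precursors, had 501 bp in both lists. At Pax6 the lists named nearby but mostly different stretches, as the map of the locus shows, and its H3K27me3 peaks numbered 7 and 8 in the window drawn. No H3K27ac peak lay in that window.

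Regulators of the other germ layers gave smaller shares, read here beside 9.08% (H3K27ac) and 3.62% (H3K27me3) of all genes. Counts of 0, 1 or 2 genes are too few to be set apart from those shares. Among 29 mesoderm factors, 0 had H3K27ac and 9 (31.0%) had H3K27me3 in both lists, among them T (Brachyury, 1210 and 923 bp), Mesp1 (644 and 631 bp) and Tbx1 (501 and 1880 bp). Of 16 endoderm factors, 0 had H3K27ac and 4 (25%) had H3K27me3: Foxa1 (642 and 501 bp), Foxa2 (501 and 1102 bp), Pdx1 (893 and 961 bp) and Nkx2-1 (851 and 501 bp). By family, 5 of 8 Lhx genes, 7 of 14 Nkx genes and 14 of 44 forkhead genes had H3K27me3, against 0, 0 and 2 with H3K27ac. Other developmental families had lower H3K27me3 shares, with 2 of 19 Sox genes (10.5%), 2 of 13 Tbx genes (15.4%) and 1 of 6 Gata genes (16.7%), against 1, 1 and 0 with H3K27ac.

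Of 36 signalling ligands, 3 (8.33%) had H3K27ac in both lists and 8 (22.2%) had H3K27me3, so the H3K27ac share was near the 9.08% of all genes and the H3K27me3 share was above their 3.62%. The acetylated ones were Nodal (6382 and 3745 bp) and Gdf3 (3759 and 4026 bp), both made by pluripotent cells, and Fgf17 (1525 and 501 bp). The H3K27me3 ones included Wnt1 (4437 and 501 bp), Wnt3a (1564 and 1370 bp), Wnt5a (1552 and 501 bp) and Wnt7a (999 and 1915 bp), and over the 19 Wnt ligands 0 had H3K27ac and 10 (52.6%) had H3K27me3. Among 27 receptors, 3 (11.1%) had H3K27ac (Epha2, Notch1 and Fzd10) and 2 (7.41%) had H3K27me3, few enough to be read beside those shares of all genes only as values. Genes of synapses and channels gave 0 of 28 with H3K27ac and 6 (21.4%) with H3K27me3, such as the glutamate receptor gene Grin1 (755 and 4499 bp) and the transporter gene Slc17a7 (1369 and 3233 bp).

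D-type cyclins bring cells into S phase, and Ccnd3 had H3K27ac (967 and 501 bp), whereas Ccnd1 (501 bp in both lists) and Ccnd2 (2104 and 5144 bp) had H3K27me3. In all, 5 of 20 cell cycle genes (25%) had H3K27ac and 2 (10.0%) had H3K27me3, beside 9.08% and 3.62% of all genes. Of 7 Cdk inhibitor genes, 1 (14.3%) had H3K27ac, Cdkn1a (2961 and 2890 bp), and 3 had no peak in any list. For H3K27me3 it was also 1 (14.3%), the imprinted Cdkn1c (2512 and 2532 bp). Counts of 1 or 2 genes are too few to be set apart from the shares of all genes.

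Other lists had few calls, to be read only as values beside the 9.08% (H3K27ac) and 3.62% (H3K27me3) of all genes. Of 18 germline genes, 0 had H3K27ac and 0 had H3K27me3 in both lists. Among 11 genes of the LIF response, 1 had H3K27ac (Pim3, 3994 and 1137 bp) and 0 had H3K27me3. Of 17 formative and primed genes, 3 had H3K27me3 (Lef1, Sox3 and Foxd3). Among 20 imprinted genes, 1 had H3K27ac (Ube3a) and 2 had H3K27me3. Genes of 2 sensory receptor families had almost no peaks: 1102 of 1110 olfactory receptor genes (99.3%) and 354 of 355 vomeronasal receptor genes (99.7%) had none in any list. The share without a peak was 66.5% of all protein-coding genes and 72.2% of the germline genes (13 of 18).

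The 2 marks hardly met. On average 28.6% of a list's peaks overlapped the other replicate of the same mark, against 0.736% that overlapped a list of the other mark (difference 27.8 percentage points, exact permutation p = 0.333). Replicate 1 lists shared 106 peaks and replicate 2 lists 87, whereas the lists of unequal number shared 53 and 25 H3K27ac peaks. Of 4868 replicated H3K27ac regions and 1402 replicated H3K27me3 regions, 1 was common to both. It measured 526 bp, at chr19:6531410-6531935 (GRCm38), within Nrxn2, which encodes a presynaptic adhesion protein.

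Against the length of the genome that overlap was not uniformly low. H3K27ac covers 0.560% and 0.488% of 2722 Mb. Of the H3K27me3 bases, 1.07% and 0.772% also lay under H3K27ac of the same number, and 0.163% and 0.340% under H3K27ac of the other number. At gene ends every pair was below the level for all gene ends. There H3K27ac covered 3.56% and 2.85% of 79.2 Mb of gene-end windows, but 1.96% and 1.48% of the H3K27me3 bases in them for the same number, and 0.216% and 0.551% for the other number.

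By gene the separation was plainer. Of genes with H3K27me3, 3.06% to 6.50% also had H3K27ac over the 4 pairs of lists, against 17.4% and 14.4% of all genes. Of genes with H3K27ac, 1.55% to 2.82% also had H3K27me3, against 7.31% and 8.25% of all genes. In both lists of each mark, 5 of the 792 H3K27me3 genes (0.631%) also had H3K27ac, against 9.08% of all genes. This count moved with the window: it was 2 with a 500 bp window and 28 with one of 2500 bp.

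At 4 of these 5 genes the marks lay apart. The smallest gap between their peaks was 4621 bp at Ccdc106, 13900 bp at Zfp580, 17329 bp at Shisa7 and 9207 bp at Pacsin3, an endocytic adaptor gene. At Trp53bp1, which encodes the DNA repair factor 53BP1, the gaps ran from 0 to 743 bp. Ccdc106 and Zfp580 are neighbours on chromosome 7, and at none of the 5 did all lists have a peak at a listed start.

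Overlap fell with the width of H3K27ac peaks and not with that of H3K27me3 peaks. Among 501 bp H3K27ac peaks, 1.27% and 0.986% overlapped either H3K27me3 list, and at 1 to 2 kb 0.142% and 0.0559% did. Of the 1491 and 1262 H3K27ac peaks of 2 kb or more, 0 overlapped an H3K27me3 peak. For H3K27me3 the share with any H3K27ac was 1.43% and 1.51% at 501 bp, and 7.84% and 5.24% at 2 to 5 kb. Narrow peaks also recurred less: 13.9% and 18.3% of the 501 bp H3K27ac peaks and 14.1% and 11.0% of the 501 bp H3K27me3 peaks were in the other replicate, against 86.9% and 91.3%, and 73.2% and 69.1%, at 2 to 5 kb.

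The gene classes were then read in lists that did not define them, those of the knockout cells and of H3K4me3, the mark of active starts. Of the 1965 H3K27ac alone genes, 1501 (76.4%) had H3K27ac in both knockout lists, where 14.4% of all genes did, and 7 (0.356%) had H3K27me3 in both. Of the 731 H3K27me3 alone genes, 4 (0.547%) had H3K27ac in both knockout lists, and 445 (60.9%) had H3K27me3, where 7.84% of all genes did. H3K4me3 in both control lists was found at 403 (20.5%) of the H3K27ac alone genes and at 0 of the H3K27me3 alone genes, beside 3.07% of all genes. The H3K4me3 lists are short (5290 peaks together), so absence from them says little of a gene.

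Promoter sequence also differed between the classes, with overlapping quartiles, and the calls did not use it. RefSeq promoters were at hand for 1588 of 1965 H3K27ac alone genes and 534 of 731 H3K27me3 alone genes. A gene could be called at either end, so not every gene compared had a peak at a listed start. In the lists that called them, 1376 (86.65%) of these H3K27ac alone genes and 384 (71.91%) of these H3K27me3 alone genes did. The part of this difference in the sequence values was not tested. The median observed over expected CpG ratio was 0.821 (quartiles 0.656 and 0.958) for H3K27ac alone and 0.682 (0.504 and 0.833) for H3K27me3 alone. Genes in no list had a median of 0.397, and all genes 0.564. The order was not that of base composition, since the median GC content was 61.7% for H3K27ac alone and 63.7% for H3K27me3 alone. A ratio of 0.6 or more was found in 80.3% of H3K27ac alone genes, in 60.9% of H3K27me3 alone genes and in 47.2% of all.

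**Figure D5:**
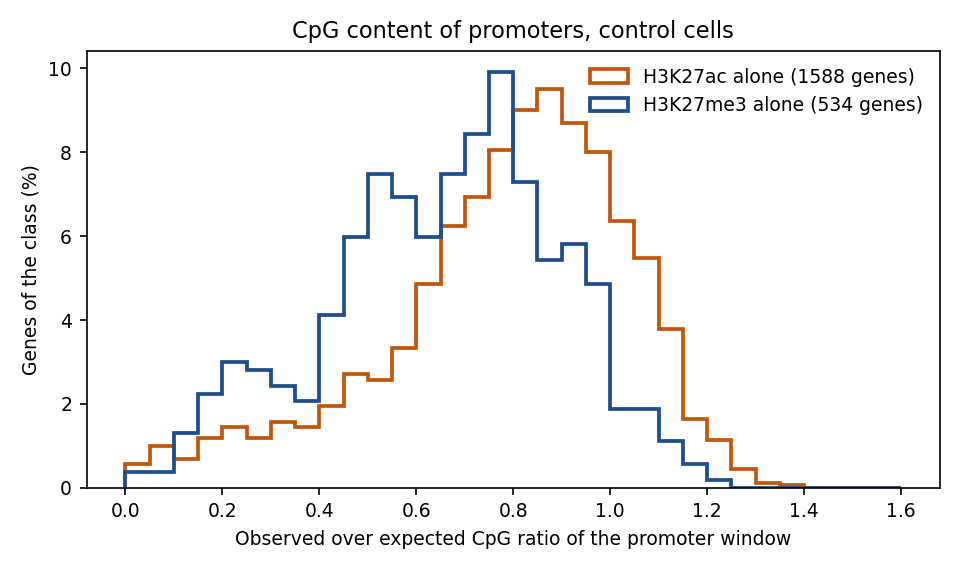
Share of genes in each class (%) by the observed over expected CpG ratio of the 300-base promoter window. The 1588 H3K27ac alone genes have a median of 0.821 and the 534 H3K27me3 alone genes a median of 0.682, with wide overlap of the classes.

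Short motifs were counted on both strands of the 300-base windows. The GC box (GGGCGG), which holds a CpG, was present in 63.8% of H3K27ac alone and 61.2% of H3K27me3 alone promoters, and in 46.2% of all. The CCAAT box (CCAAT) was in 35.4% and 32.3%, against 38.2% of all, and the TATA box (TATAAA) in 8.21% and 7.54%, against 12.6% of all. No motif contains another whole, although a GC box and a CCAAT box can share bases. Both classes thus lay on the same side of all promoters for each motif. Of the printed promoters, Sox2 and Pou5f1 hold a GC box and a CCAAT box, Klf4 a GC box, and Evx1 and Hoxa7 none of the 3.

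On the scale of genomic neighbourhoods the marks shared regions more than positions. Of 2564 bins of 1 Mb with a gene or peak, 1807 had H3K27ac in both lists, 1228 had H3K27me3 in both, and 1058 had all 4 lists. Across these bins the Spearman correlation of H3K27ac with H3K27me3 peak numbers was 0.531, and that of each with gene number was 0.613 and 0.530, a description in which the bins share gene density. The median gap from an H3K27ac peak to the nearest H3K27me3 peak was 112436 and 119983 bp, and from an H3K27me3 peak to the nearest H3K27ac peak 51004 and 51286 bp. The H3K27ac lists are the longer ones, and the part of list length in this was not tested. Peaks with the other mark within 10 kb made up 5.68% and 4.34% of H3K27ac and 13.7% of H3K27me3 peaks in both lists.

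Within a mark, peaks lay in groups. A peak of the same list lay within 10 kb of 54.1% and 53.7% of H3K27ac peaks and of 51.6% and 51.4% of H3K27me3 peaks (difference 2.35 percentage points, exact permutation p = 0.333), and this sign turned at 5 kb, with lists of equal length and without 501 bp peaks. Joined at 10 kb, the largest groups of replicated H3K27ac regions held 8 regions each. They spanned 56.7 kb at Macf1, a cytoskeletal linker gene, and 44.5 kb at H2-M5, Zfp57 (which keeps imprints) and Mog. The largest H3K27me3 groups held 6 regions each, over 41.7 kb from Hoxa7 to Hoxa13 and over 14.3 kb at Uncx. Smaller H3K27me3 groups were at Apc2, Sema6b, Lhx1 and Lbx1. These were named by their number of regions after values were seen. Class was also compared between neighbouring genes 2 to 100 kb apart: 16.0% of the neighbours of H3K27ac alone genes were H3K27ac alone (7.79% of all neighbours were), and 9.11% of the neighbours of H3K27me3 alone genes were H3K27me3 alone (3.23% of all). Unlike neighbours were found as well, since 10.3% of the neighbours of H3K27me3 alone genes were H3K27ac alone. Genes in this range can share a wide peak, as Dppa5a and Ooep do, and its part in the like-class shares was not tested.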

How the data were processed

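ChIP-seq peak lists of H3K27ac and H3K27me3 (2 each) from control cells were used, and the knockout and H3K4me3 lists only as background. The authors deposited peaks as BED positions, with a score column that is constant and was not used. The submitters' processing notes name CASAVA, Trimmomatic 0.38, Bowtie2 2.4.1, SAMtools, HOMER and mm10 (GRCm38). Which of these called the peaks, at which threshold and against which input, is not stated there. RefSeq's GRCm38.p6 gene table, which has no strand, gave 21887 protein-coding genes. A gene was called where a peak met the 1 kb either side of an end, and its width is that of the widest such peak. Overlap needed 1 bp. Python 3.11.15, numpy 2.4.6, pandas 2.3.3 and scipy 1.17.1 ran exact two-sided permutation tests over the lists, after the code was tested on simulated data.

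The members and the gene lists (21 lists, of whose 458 symbols 455 were found, and 20 families) were chosen with earlier results of these data known. Named genes are the 10 widest per class, the 10 widest regions per mark, Mettl14, Mettl3, up to 4 members per class of a list, and mapped loci, of which 4 are drawn. Alternatives were list length, 501 bp peaks, H3K4me3-shared peaks, window, distance, overlap, each replicate and the replicate block. Some genes that this rule names are not reported here.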

Additional observations from a re-analysis of the deposited data

How the results depend on the processing

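Of 126 alternative values, 100 kept their direction and, for counts, stayed within 1.5 times the reported one. With each list reduced to its 6312 widest peaks, the gene-end difference became 1.08 percentage points (H3K27ac minus H3K27me3), the gene-body difference -4.13 and the clustered difference -11.5, with 1293 H3K27ac alone genes and 2 genes of both marks. Without 501 bp peaks the gene-body difference was -2.75 and the clustered difference -1.15, with 350 H3K27me3 alone genes and 2 of both marks. A 500 bp gene-end window gave differences of 1.71 at gene ends and -2.62 in gene bodies, with 376 H3K27me3 alone genes and 2 of both marks. A 2500 bp window gave 1282 H3K27me3 alone genes and 28 of both marks, and transcription starts alone gave 3 of both marks. A neighbour distance of 5 kb gave a clustered difference of -1.75. Leaving out H3K27ac peaks shared with H3K4me3 gave 969 H3K27ac alone genes. The cause of these changes was not tested.

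Without 1 list at a time, a single list then defines its mark: H3K27ac alone ranged from 1972 to 3628 genes (3063 without H3K27ac replicate 1, 3628 without H3K27ac replicate 2), H3K27me3 alone from 752 to 1635 (1635 without H3K27me3 replicate 1, 1464 without H3K27me3 replicate 2), and both marks from 12 to 40. With a replicate block the log2 difference in peak number was 1.10 and the smallest possible exact permutation p 0.5, and no direction changed. Peak numbers of same-numbered lists did not deviate together over 2564 bins (Pearson r = 0.00792). Across the marks, though, peaks of same-numbered lists overlapped more than those of differently numbered lists, so whether the numbers pair the lists is not settled. The overlap between marks was not run under the block, and 501 bp shares have no value without those peaks. The depth is unknown, so an absent peak is not an absent mark.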

Other observations

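Between lists of different marks, those with the same replicate number overlapped more than those with different numbers, in both cell groups. In knockout cells 206 and 205 H3K27ac peaks overlapped the same-numbered H3K27me3 list, and 125 and 115 the other one. In control cells these numbers were 106 and 87, and 53 and 25. H3K4me3 and H3K27me3 showed the same order, with 36 and 47 control H3K4me3 peaks under the same number and 14 and 16 under the other. What the lists of a number share is not in the labels and was not tested.

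The X chromosome, with 4.41% of protein-coding genes, held 2.22% and 2.09% of H3K27ac peaks (345 and 282) and 0.570% and 0.541% of H3K27me3 peaks (36 and 39). H3K27me3 was densest on chromosome 8, with 0.536 and 0.616 peaks per gene, where H3K27ac had 0.710 and 0.571. The Y chromosome had 0 peaks in all 4 lists. These chromosomes were chosen after their values were seen.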
